A study of Caenorhabditis elegans with 6 samples.

Results

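The genes described here are 9 components of the insulin/IGF-1 signalling pathway of Caenorhabditis elegans: the receptor gene daf-2, the PI3-kinase genes age-1 and aap-1, the kinase genes pdk-1, akt-1, akt-2 and sgk-1, the phosphatase gene daf-18 and the FOXO gene daf-16. They were chosen by name, as the probe sets that the platform annotation assigns to 1 of these genes alone, which gave 23 of the 22548 probe sets that are not array controls. RNA came from whole larvae at L4, the last larval stage, of 2 genotypes: wild-type, whose strain the labels do not name, and zip-3(gk3164), which carries a mutant allele of the bZIP transcription factor gene zip-3. Both genotypes had been synchronized with bleach, grown in liquid and fed control RNAi bacteria, so by the labels no worm gene was targeted in either. Each genotype had 3 arrays labelled as biological replicates, and each array measured whole worms with all of their tissues. The labels do not say whether replicates came from separate cultures, and p-values measure the spread between these arrays only.

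In worms, insulin-like peptides bind the receptor DAF-2, which activates the PI3-kinase AGE-1. The lipid that AGE-1 makes recruits and activates PDK-1, AKT-1 and AKT-2, and the phosphatase DAF-18 removes that lipid. AKT kinases phosphorylate the FOXO transcription factor DAF-16 and hold it in the cytoplasm, and when signalling is low DAF-16 enters the nucleus and turns on genes of stress resistance, dauer formation and long life. Most of this control acts on protein phosphorylation and localization, which transcript arrays do not measure.

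Signals are linear MAS5 values that the authors had scaled to the same trimmed mean on every array, with array medians from 123.9 to 139.1. The zip-3 transcript itself read 1203.9, 1112.7 and 939.6 in wild-type arrays 1, 2 and 3 and 384.6, 458.7 and 233.8 in the mutant arrays with its brighter probe set, where every array labelled zip-3(gk3164) was below every wild-type array (limma adjusted p = 0.0717). Its dimmer probe set differed by -0.51 with overlapping groups (limma adjusted p = 0.393). Mutant array 3 stood apart from the other 2 mutant arrays: its correlation across the tested probe sets was 0.925 and 0.890 with them, and 0.943 to 0.958 with arrays of the wild-type. Results below are therefore also given without it where it changes them. It was singled out for its likeness to wild-type, so leaving it out favours larger differences between the genotypes. Results in that setting are no separate support for those on all 6 arrays. By the brighter zip-3 probe set, at 233.8, it was the lowest of the mutant arrays. Of 61 genes in marker lists of 8 tissues, 60 had a probe set and 59 were bright enough to be tested. A signal of 0 was found for 0 of them, and no detection calls were used. Sperm markers were lower in the mutant for 9 of 9 genes and oocyte and germline markers for 10 of 10, while epidermal and moulting markers were higher for 10 of 10. Of the others, neuron markers were higher for 8 of 8, muscle markers for 5 of 6, vulva and uterus markers for 4 of 5 and pharynx markers for 1 of 4. In whole worms a smaller number of cells of one tissue, less RNA per cell and a different point within L4 at harvest cannot be told apart.

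A probe set was tested where its mean log2 signal reached the 40th percentile of all probe sets, a signal of 68.67, and 15 of the 23 probe sets of the pathway passed. The dimmest probe set that passed belonged to pdk-1, with a geometric mean signal of 82.94, and the brightest that did not belonged to daf-2, at 63.53. The passing probe sets cover 8 of the 9 genes, all but daf-2. None of the 15 differed between the genotypes at an adjusted p of 0.05 (limma with Benjamini-Hochberg adjustment over 13529 probe sets), where 0.133% of all tested probe sets did. At an unadjusted limma p under 0.05 there were 2 of 15, both from daf-16 and both higher in the mutant, against 19.4% of all tested probe sets, of which those higher in the mutant made up 10.1%, so the number of pathway probe sets at that level was not above the background. Mutant arrays lay entirely above wild-type arrays for 4 of the 15 and entirely below for 0, against 14.1% and 8.80% of all tested probe sets. The 4 were 2 probe sets of daf-16, 1 of akt-2 and 1 of pdk-1. The median difference over the 15, mutant minus wild-type on the log2 scale, was 0.12, beside 0.04 for all tested probe sets, and 10 of 15 differences were positive, beside 54.2% of all. The median size of the difference without regard to sign was 0.24, beside 0.30.

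**Figure D1:**
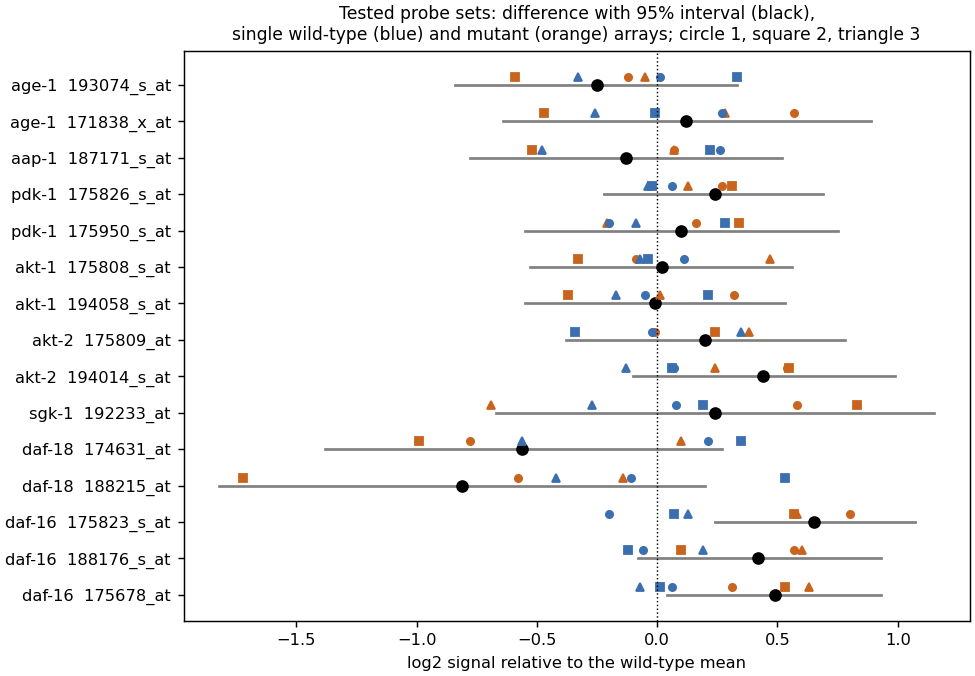
Log2 signal relative to the wild-type mean (horizontal axis) for the 15 tested probe sets of the pathway (vertical axis). Black points are mutant minus wild-type differences with 95% intervals from limma, and coloured symbols are single arrays. The intervals of 2 daf-16 probe sets, 175823_s_at and 175678_at, lie above 0, and those of the other 13 include 0.

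daf-16, which encodes the transcription factor at the end of the pathway, read 1.57, 1.34 and 1.40 times as high in the mutant as in wild-type with its 3 tested probe sets, in order of brightness. Its brightest probe set, 175823_s_at, read 652.0, 782.8 and 816.7 in the 3 wild-type arrays and 1299.8, 1108.1 and 1120.1 in the mutant arrays. All 3 mutant arrays were above all 3 wild-type arrays, with means of 750.5 ± 86.99 and 1176.0 ± 107.4 (SD, n = 3 each). The log2 difference of this daf-16 probe set was 0.65 ± 0.18 (SE), a ratio of 1.57 with a 95% interval of 1.18 to 2.09, and it did not pass over all probe sets (limma adjusted p = 0.162). Among the 13529 tested probe sets, 590 had a smaller p. Taken alone, it had an exact permutation p of 0.10 (two-sided), which is the lowest value possible with 3 arrays per genotype.

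A second daf-16 probe set, 175678_at, whose name carries no suffix for shared sequence, read 289.4, 279.7 and 265.8 in wild-type and 344.5, 401.5 and 429.7 in the mutant. Here too the groups did not overlap, and the log2 difference was 0.49 ± 0.19 (limma adjusted p = 0.225). The daf-16 probe set 188176_s_at read 366.7, 351.6 and 436.0 in wild-type and 570.0, 410.4 and 581.1 in the mutant, where mutant array 2 fell below wild-type array 3. Its log2 difference was 0.42 ± 0.22 (limma adjusted p = 0.330). The daf-16 probe set 181992_s_at was too dim to be tested, at 64.25, 54.39 and 44.82 in wild-type and 53.98, 16.54 and 42.68 in the mutant, and its difference of -0.68 pointed the other way. daf-16 produces several isoforms from different start sites, and the annotation used here does not say which of them each probe set detects. The order of the mutant arrays also differed between probe sets: array 1 was highest for 175823_s_at and lowest for 175678_at.

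**Figure D2:**
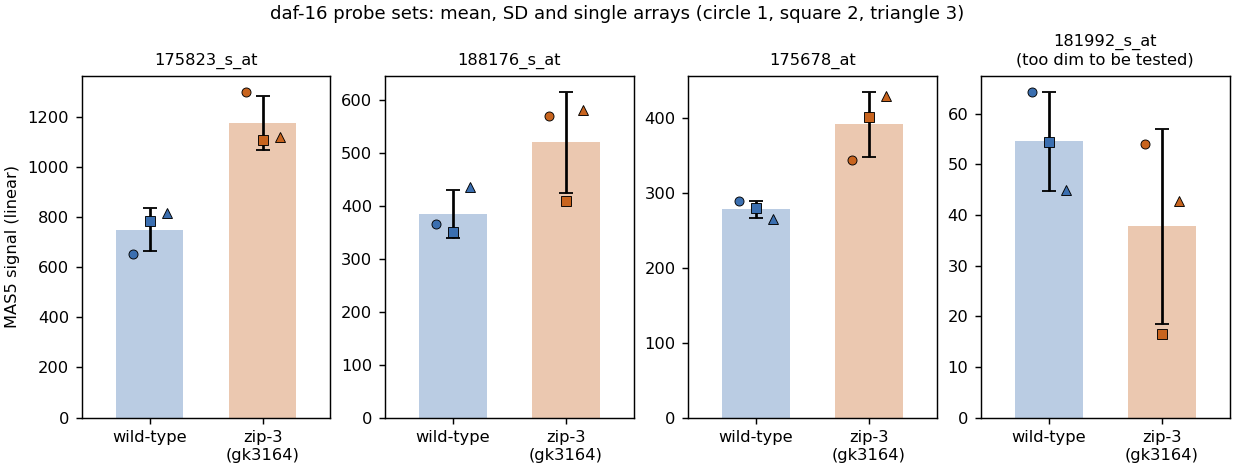
Linear MAS5 signal (vertical axes, separate scale for each panel) of the 4 daf-16 probe sets in wild-type and zip-3(gk3164) larvae. Bars are means, error bars SDs of 3 arrays, and symbols single arrays. The 3 probe sets bright enough to be tested have higher means in the mutant, 1176.0, 520.5 and 391.9 against 750.5, 384.8 and 278.3, and the dim one has a lower mean.

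Leaving out each array in turn gave log2 differences between 0.55 and 0.72 for 175823_s_at, and without mutant array 3 it was 0.68 ± 0.19 (limma adjusted p = 0.0520). Each of the 3 tested daf-16 probe sets was positive in every alternative in which it was fitted by itself, with lowest values of 0.55, 0.34 and 0.32. Epidermal and moulting markers, which were also higher in all 3 mutant arrays, stood 1.98, 1.88 and 1.72 above the wild-type mean by their array medians on the log2 scale, and at -0.57, 0.12 and 0.28 in wild-type. Their summed signals ranged from 2637.6 to 5341.9 in wild-type and from 13537.6 to 17450.8 in the mutant. The brightest daf-16 probe set stood at -0.20, 0.07 and 0.13 in wild-type and 0.80, 0.57 and 0.58 in the mutant. It had the same order of wild-type arrays and placed mutant array 1 highest as well. The other tested daf-16 probe sets did not share both traits. 175678_at had the reverse order in wild-type (0.06, 0.01 and -0.07) and mutant array 1 lowest (0.31, 0.53 and 0.63). 188176_s_at had mutant array 3 highest (0.57, 0.10 and 0.60). The part of what these markers reflect, tissue content or timing within L4, in the daf-16 difference was not tested.

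The genes whose pattern over the 6 arrays lay closest to that of the brightest daf-16 probe set, by the root mean square difference of log2 signals centred on their own means, were fasn-1, lec-4, nra-3, mua-3 and K10B3.1, out of 10368 genes compared. The distances were 0.07 for fasn-1, which encodes fatty acid synthase, 0.08 for the galectin gene lec-4, 0.08 for nra-3, 0.08 for mua-3, which encodes an epidermal attachment protein, and 0.09 for K10B3.1. fasn-1 read 1816.5, 2236.1 and 2119.9 in wild-type and 3513.7, 3075.8 and 3370.7 in the mutant. Selection by this distance fixes the sign, so all 5 differences had to lie near that of daf-16. They were between 0.53 and 0.74, and none passed (limma adjusted p between 0.129 and 0.230).

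daf-18, which encodes the phosphatase that opposes AGE-1, had the most negative differences among the tested probe sets of the pathway, and its signals varied widely between arrays. Its brighter probe set, 174631_at, read 1607.1, 1776.0 and 940.2 in wild-type and 808.1, 699.8 and 1492.1 in the mutant. Mutant arrays 1 and 2 were below all wild-type arrays, and mutant array 3 lay within the wild-type range. The dimmer daf-18 probe set, 188215_at, read 504.3, 789.9 and 408.3 in wild-type and 366.4, 165.9 and 493.8 in the mutant, with the same placing of mutant array 3. The log2 differences were -0.56 ± 0.35 for 174631_at and -0.81 ± 0.43 for 188215_at, and neither passed (limma adjusted p = 0.427 and 0.347). Neither probe set name carries a suffix for shared sequence. Without mutant array 3 the differences of the daf-18 probe sets were -0.89 ± 0.29 and -1.15 ± 0.41 (limma adjusted p = 0.0829 and 0.101), in a fit where 15.9% of all tested probe sets passed the adjusted threshold.

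The medians of the oocyte and germline markers put the 6 arrays in the same order as both daf-18 probe sets. Measured against the wild-type mean, their medians were 0.13, 0.27 and -0.48 in wild-type arrays 1, 2 and 3 and -0.98, -1.61 and -0.18 in the mutant arrays, and the sums of their signals ranged from 19692.7 to 27428.5 in wild-type and from 9923.9 to 23868.1 in the mutant. daf-18 probe set 174631_at stood at 0.21, 0.35 and -0.56 in wild-type and -0.78, -0.99 and 0.10 in the mutant on the same scale. Wild-type arrays 2 and 1 came first, then mutant array 3, wild-type array 3, mutant array 1 and mutant array 2. Sperm markers, with medians of 0.09, 0.07 and -0.19 in wild-type and -1.34, -2.0 and -0.40 in the mutant, also put mutant array 2 lowest, and their summed signals ranged from 115552.1 to 136621.5 in wild-type and from 31707.6 to 99121.3 in the mutant. The part of germline content or of timing within L4 in the daf-18 difference was not tested.

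Neither subunit gene of the PI3-kinase passed over all probe sets. age-1, which encodes the catalytic subunit, read 505.2, 629.8 and 398.2 in wild-type and 462.2, 333.6 and 484.5 in the mutant with its brighter probe set, 193074_s_at. aap-1, which encodes the regulatory adaptor subunit and has 1 probe set, read 649.2, 633.5 and 390.9 in wild-type and 569.8, 379.0 and 572.1 in the mutant. In both genes wild-type array 3 and mutant array 2 were low and the genotypes overlapped. The log2 differences were -0.25 ± 0.25 for age-1, with a ratio between 0.56 and 1.26 by its 95% interval, and -0.13 ± 0.28 for aap-1, with a ratio between 0.58 and 1.44 (limma adjusted p = 0.621 and 0.847). The other age-1 probe set, 171838_x_at, gave 0.12 ± 0.33, of opposite sign, and both age-1 probe sets and that of aap-1 carry suffixes for shared sequence. Wild-type array 3 and mutant array 2 are also the lowest arrays of their genotypes for the germline markers above, and for both akt-1 probe sets. Mutant array 1 was unlike: the germline markers stood at -0.98 there, age-1 at -0.12 and 0.57 by its probe sets and aap-1 at 0.07. The part of the germline markers in these values was not tested.

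**Figure D3:**
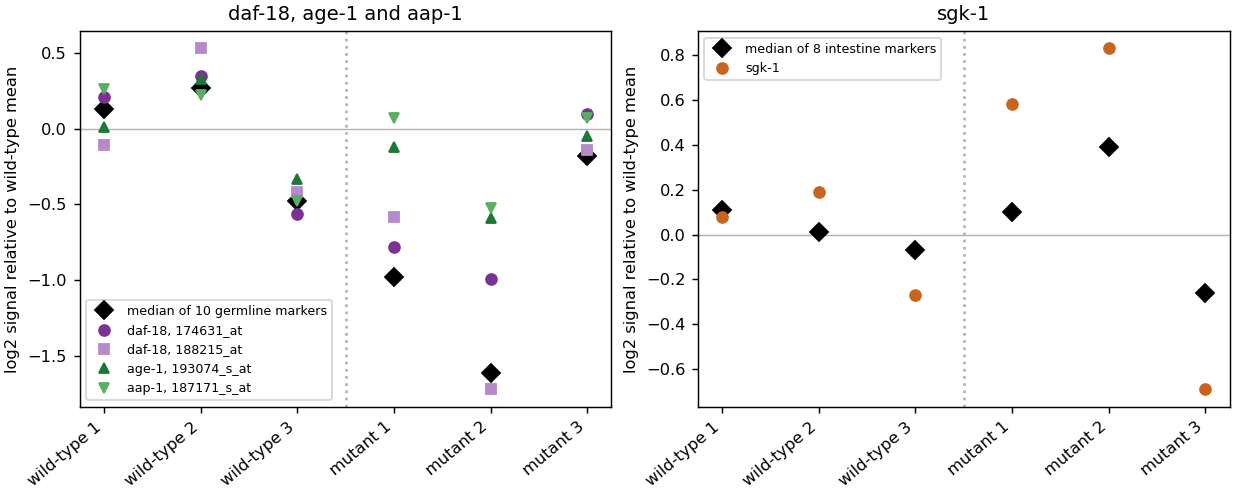
Log2 signal relative to the wild-type mean (vertical axes) in each of the 6 arrays (horizontal axes). Left, the 2 daf-18 probe sets, age-1 and aap-1 with the median of 10 oocyte and germline markers; right, sgk-1 with the median of 8 intestine markers (black diamonds). Mutant array 2 is lowest for daf-18, age-1, aap-1 and the germline markers, and mutant array 3 is lowest for sgk-1 and the intestine markers.

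None of the kinase genes downstream of PI3-kinase passed over all probe sets. pdk-1, which encodes the kinase that activates AKT and SGK, read 191.1, 181.9 and 178.7 in wild-type and 222.1, 227.5 and 201.4 in the mutant with probe set 175826_s_at. The mutant arrays were all higher, by a log2 difference of 0.24 ± 0.20 (limma adjusted p = 0.549), and the 95% interval of the ratio ran from 0.86 to 1.62. The second tested pdk-1 probe set, 175950_s_at, gave 0.10 ± 0.28 with overlapping groups, and 3 further pdk-1 probe sets were too dim to be tested. One of these, 191385_s_at, read between 34.95 and 44.09 in wild-type and between 51.97 and 56.91 in the mutant.

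akt-1 and akt-2 encode the worm AKT kinases that phosphorylate DAF-16. akt-1 read 1272.8, 1146.0 and 1118.0 in wild-type and 1103.9, 935.9 and 1634.8 in the mutant with probe set 175808_s_at, with mutant arrays on both sides of the wild-type range. Its log2 difference was 0.02 ± 0.23 and that of its other probe set -0.01 ± 0.23, and the 95% interval of the ratio was 0.69 to 1.47 for the first. The sign of the akt-1 difference turned to negative when arrays were centred on their medians, at -0.04, and without mutant array 3, at -0.21 ± 0.17. akt-2 was positive in both probe sets. 194014_s_at of akt-2 read 94.99, 93.73 and 82.39 in wild-type and 130.7, 132.0 and 106.8 in the mutant, without overlap. The difference was 0.44 ± 0.23 on the log2 scale (limma adjusted p = 0.343). The brighter akt-2 probe set, 175809_at, gave 0.20 ± 0.25 with overlapping groups and a 95% interval of the ratio from 0.77 to 1.72.

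sgk-1, which encodes a kinase related to AKT that also acts with TOR complex 2 in growth and fat storage, spread more widely between mutant arrays than any tested probe set of pdk-1, akt-1 or akt-2. It read 743.2, 802.0 and 581.0 in wild-type and 1046.7, 1251.3 and 436.7 in the mutant, so mutant arrays 1 and 2 were above and mutant array 3 below all wild-type arrays. The log2 difference of sgk-1 was 0.24 ± 0.39 (limma adjusted p = 0.783). Without mutant array 3 it was 0.70 ± 0.21 (limma adjusted p = 0.0629), and without mutant array 2 it was -0.05. Intestine markers stood at 0.11, 0.01 and -0.07 in wild-type and 0.10, 0.39 and -0.26 in the mutant. They were likewise highest in mutant array 2 and lowest in mutant array 3, beside 0.83 and -0.69 for sgk-1. Mutant array 1 was unlike: the markers were within their wild-type range there, and sgk-1 stood at 0.58, above all wild-type arrays. Among wild-type arrays the markers were highest in array 1 and sgk-1 in array 2. Of the 8 intestine markers 5 were higher and 3 lower in the mutant, and their summed signals ranged from 70415.8 to 72946.4 in wild-type and from 56778.0 to 86821.5 in the mutant. Their part in the sgk-1 values was not tested.

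daf-2, which encodes the insulin/IGF-1 receptor, was not measured well enough to be compared. Its 4 probe sets were all under the signal filter, and all carry suffixes for shared sequence. The brightest, 172033_x_at, read 47.20, 46.67 and 68.47 in wild-type and 56.25, 67.35 and 115.0 in the mutant, with overlapping groups. The other 3 daf-2 probe sets read between 1.06 and 61.08 and moved in no common direction, with differences of 0.17, -1.87 and 0.15. In a fit with no filter the brightest gave 0.51 ± 0.41 (limma adjusted p = 0.607). The genes closest to its pattern by the same distance were wrk-1 at 0.11, Y45F10B.13 at 0.12, unc-84 at 0.13, egl-30 at 0.13 and T13H5.1 at 0.14. These matches rest on a probe set below the filter.

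Genes that act beside the core pathway were examined as lists. Each list is set beside all genes tested, which include the sperm and germline genes whose markers were lower in the mutant. The part of tissue content or timing within L4 in these comparisons was not tested. Of 18 adaptors, phosphatases and partners, 11 were bright enough to be tested, and the untested ones were ist-1, shc-1, sinh-1, eak-3, eak-4, eak-6 and sdf-9. None of the 11 passed over all probe sets, where 0.154% of 10369 genes did, and 1 had an unadjusted limma p under 0.05, where 19.9% of genes did, 9.87% higher and 10.1% lower in the mutant. The median difference of these partners was 0.28, beside 0.03 for all genes, and 8 were positive, beside 52.8% of all genes. piki-1, which encodes a class II PI3-kinase, read 274.4, 213.6 and 241.5 in wild-type and 356.7, 447.8 and 293.6 in the mutant. The difference was 0.58 ± 0.23 on the log2 scale (limma adjusted p = 0.238). daf-15, the worm raptor gene of TOR complex 1, differed by 0.38 ± 0.17, and rsks-1, which encodes S6 kinase, by 0.43 ± 0.22. In piki-1, daf-15 and rsks-1 all mutant arrays were above all wild-type arrays, as in 14.1% of all tested probe sets. vps-34, which encodes the class III PI3-kinase, differed by 0.39 ± 0.21, let-92, which encodes the catalytic subunit of protein phosphatase 2A, by 0.28 ± 0.17, and let-363, the worm TOR kinase gene, by 0.30 ± 0.19.

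Regulators and nuclear partners of DAF-16 were positive in 14 of 16 tested genes, beside 52.8% of all genes. Their median was 0.33, beside 0.03. None passed over all probe sets. An unadjusted limma p under 0.05 was found for 3, all higher in the mutant, beside 9.87% of all genes. hlh-30, which encodes the worm TFEB, a regulator of autophagy that works with DAF-16, read 449.8, 519.1 and 567.8 in wild-type and 1106.7, 944.6 and 933.8 in the mutant. The groups for hlh-30 were far apart, and the log2 difference was 0.96 ± 0.18, a ratio of 1.95 (limma adjusted p = 0.0909). aak-2, which encodes an AMP-activated kinase subunit that can phosphorylate DAF-16, read 933.1, 864.8 and 1080.5 in wild-type and 1555.0, 1733.5 and 1345.0 in the mutant, or 0.69 ± 0.18 (limma adjusted p = 0.157). cst-1, a Ste20-like kinase gene, differed by 0.62 ± 0.25, and jnk-1 by 0.58 ± 0.25, both without overlap. Mutant arrays lay entirely above wild-type arrays for 14.1% of all tested probe sets. The 14-3-3 gene ftt-2 differed by 0.97 ± 0.42 with overlapping groups, since wild-type array 3 read 2255.2 against 5871.8 and 7260.3, and the bHLH gene mdl-1 by 0.38 ± 0.20. The probe sets of hlh-30, cst-1, ftt-2 and mdl-1 carry suffixes for shared sequence, and a close paralog of ftt-2, par-5, named after its value was seen, differed by -0.23 ± 0.15. Mutant arrays of par-5 lay entirely below its wild-type arrays, as in 8.80% of all tested probe sets. Without mutant array 3, 3 of the 16 rose at the adjusted threshold, hlh-30 (1.00), aak-2 (0.78) and pqm-1 (1.22), where 6.01% of all genes were higher and 10.9% lower at that threshold. pqm-1, which encodes a zinc finger factor known to act opposite to DAF-16, is named after its value was seen. On all 6 arrays pqm-1 differed by 0.65 ± 0.49 with overlapping groups (limma adjusted p = 0.506). Its mutant array 3, at 530.5, was below all wild-type arrays.

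Of 28 listed genes known to rise when DAF-16 is active, 22 had a probe set and 16 were tested. No probe set was assigned to ctl-1, hsp-16.1, hsp-16.11, dod-8, old-1 or sodh-1 alone. Too dim to be tested were mtl-1, hsp-12.6, hsp-16.41, scl-1, thn-1 and djr-1.2. The difference was positive for 14 of the 16, beside 52.8% of all genes. Their median was 0.44 on the log2 scale, beside 0.03. With limma 0 of the 16 passed over all probe sets, and 2 had an unadjusted p under 0.05, lea-1 and dod-3, both higher, beside 9.87% of all genes. lea-1, which encodes a late embryogenesis abundant protein that protects against desiccation, read 1819.2, 1854.8 and 2171.3 in wild-type and 2724.2, 2447.7 and 2871.3 in the mutant, or 0.46 ± 0.16 (limma adjusted p = 0.193). dod-3 read 430.2, 119.8 and 194.6 in wild-type and 2485.7, 544.5 and 327.3 in the mutant, and mutant array 1 stood far above the rest in the difference of 1.82 ± 0.77. cyp-34A9, a cytochrome P450 gene, differed by 0.83 ± 0.38, the ferritin gene ftn-1 by 0.91 ± 0.45 and the nicotinamide nucleotide transhydrogenase gene nnt-1 by 1.15 ± 0.61, and in all 3 mutant array 3 was within or below the wild-type range. sip-1, which encodes a small heat shock protein, differed the other way, by -1.26 ± 0.60. The superoxide dismutase gene sod-3, a widely used reporter of DAF-16 activity that is named here after its values were seen, read 77.94, 56.26 and 70.44 in wild-type and 105.1, 88.47 and 79.34 in the mutant, or 0.42 ± 0.27 (limma adjusted p = 0.428). sod-3 was close to the filter, and its lowest mutant array was barely above its highest wild-type array. Without mutant array 3, 5 of these genes rose at the adjusted threshold, cyp-34A9, ftn-1, nnt-1, icl-1 and ctl-2, and 0 fell, where 6.01% of all genes were higher and 10.9% lower at that threshold. icl-1 and ctl-2 are named after their values were seen. On all 6 arrays they differed by 0.90 ± 0.59 and 0.35 ± 0.28, both with overlapping groups (limma adjusted p = 0.442 and 0.528).

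Of 9 listed genes known to fall when DAF-16 is active, 7 were tested and 0 passed over all probe sets with limma. The differences were positive for 5 and negative for 2, where 52.8% of all genes were positive. Their median was 0.16, beside 0.03. Both genes with negative differences had an unadjusted limma p under 0.05, where 19.9% of all genes did and 10.1% were lower at that level. dod-19 read 5642.8, 6365.0 and 6871.9 in wild-type and 3614.9, 5182.4 and 4745.0 in the mutant, with no overlap. The difference was -0.49 ± 0.18 on the log2 scale (limma adjusted p = 0.207). dod-23 differed by -1.55 ± 0.61 (limma adjusted p = 0.229), with mutant array 3 at 1009.1 inside the wild-type range of 840.0 to 2214.2. ins-7, an insulin-like peptide gene that DAF-16 represses, differed by 0.38 ± 0.31, dod-18 by 0.16 ± 0.19 and dod-22 by 0.23 ± 0.45. dod-18 also had no overlap, in the opposite direction to dod-19. It read 372.2, 379.2 and 344.9 in wild-type and 462.2, 385.7 and 380.7 in the mutant. Mutant arrays lay entirely above wild-type arrays for 14.1% of all tested probe sets and entirely below for 8.80%. dod-24 ranged from 865.7 to 16241.7 among the mutant arrays, and its difference of 0.42 was less than its SE of 1.01. Without mutant array 3, dod-23 was the 1 gene of the list that fell at the adjusted threshold, at -2.18, where 10.9% of all genes were lower.

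**Figure D4:**
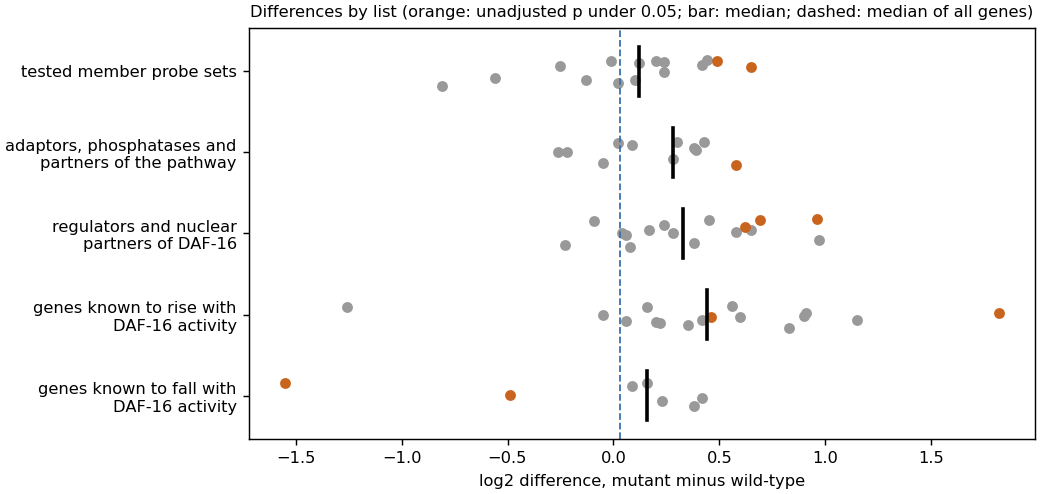
Log2 difference, mutant minus wild-type (horizontal axis), of the 15 tested probe sets of the pathway and of the tested genes of the 4 lists (rows). Each point is a probe set or a gene, orange where the unadjusted limma p was under 0.05, and black bars are medians, at 0.12, 0.28, 0.33, 0.44 and 0.16 from top to bottom; the dashed line is the median of all genes, 0.03.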

How the data were processed

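Transcripts of 6 samples, 3 wild-type and 3 zip-3(gk3164), were measured on Affymetrix arrays. The deposited values are linear probe set intensity values for which the submitters' processing notes name Affymetrix Expression Console and MAS5, with versions not given in the sources used here. Without its lowest and highest 2% each array has a mean of 500.2, so arrays were scaled alike before deposit. MAS5 subtracts mismatch signal, which makes dim probe sets noisy, and no detection calls were used here.

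Signals were taken to log2 without an offset. Probe sets at or above the 40th percentile of mean log2 signal were fitted with limma 3.58.1 in R 4.3.3 on genotype, with moderated variances that follow intensity. Tests were two-sided, p-values were adjusted by Benjamini-Hochberg over 13529 probe sets, and the threshold was 0.05. Errors of differences are moderated standard errors. The number of arrays limits the precision. Genes of the lists are represented by their brightest probe set annotated to them alone. The annotation gave 1 gene for 20766 probe sets, several for 887 and none for 895, and 20701 matched the WBcel235 gene table, which changed 0 symbols. No coordinates are given, since the files name no genome build, and no sequences were used.

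The members and lists were chosen with earlier results of these data known. All members are named, as are zip-3 and the 5 genes closest in pattern to daf-16 and to daf-2. From each list up to 6 genes are named in order of the size of limma's statistic. Further list genes are marked as named after their values were seen. Replicate numbers were not used to pair the arrays in the main fit. Deviations of same-numbered arrays correlated at 0.02, 0.05 and -0.16, which does not settle whether such arrays were prepared together. Arrays were also simulated with 13529 probe sets, 50 of them changed at each size, independent noise and no outlying array. There this comparison called 14% of probe sets given a log2 change of 1 and 78% of those given 2. It made 148 calls in the simulation, beside 18 in the data, so these shares need not hold for the data. Alternatives were quantile normalization, median centring, an offset of 16, no filter or one at the 60th percentile, no trend, robust estimation, array weights, replicate blocks, leaving out each array, averaging a gene's probe sets and, for medians and lists, leaving out shared sequence.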

Additional observations from a re-analysis of the deposited data

How the results depend on the processing

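In the simulation of this comparison, which had no outlying array, 14% of log2 changes of 1 were called. That share need not hold for the data. Every tested probe set of the pathway differed by less than 1. The number of probe sets of the pathway past the adjusted threshold was 0 in all alternatives run except array weights, where 3 passed: daf-16 175823_s_at (limma adjusted p = 0.00371) and 188176_s_at (0.0193) and daf-18 174631_at (0.0164). Those weights gave mutant array 1 a value of 5.89 and mutant array 3 a value of 0.27, and called 4738 probe sets in all, beside 18 without weights, 42 with an offset of 16, 0 with the replicate block and 0 to 2151 when single arrays were left out, the most without mutant array 3. Probe sets of the pathway at an unadjusted p under 0.05 numbered 7 with array weights, 1 with arrays centred on their medians, 1 with the replicate block and 1 to 4 when single arrays were left out, with 4 without mutant array 3. Their median difference was 0.23 with array weights and 0.02 with the filter at the 60th percentile, where fewer probe sets were tested, and 0.06 to 0.19 with single arrays left out. The replicate block changed no other call.

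Averaging all 4 daf-16 probe sets, the dim one included, gave 0.22 (limma adjusted p = 0.614). The daf-16 adjusted p of the brightest probe set otherwise ranged up to 0.461. Signs turned for akt-1, at -0.10 with array weights, -0.04 with median centring, and -0.21 to 0.19 with single arrays left out, where it was negative without mutant array 3 (-0.21), without wild-type array 3 (-0.02) and without wild-type array 2 (-0.00). They also turned for aap-1, at 0.07 without mutant array 2 and 0.00 when wild-type array 1 was left out, within -0.36 to 0.07 over single arrays left out. The sgk-1 value was -0.05 without mutant array 2, within -0.05 to 0.70. On all 6 arrays the differences of these 3 genes are smaller than their SEs.

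With array weights 4 partners of the pathway, 7 regulators of DAF-16, 10 genes known to rise and 2 known to fall with DAF-16 passed, where 35.7% of all genes did, and the median of the last list was -0.72. Leaving out single arrays, these lists had 0, 0 to 3, 0 to 5 and 0 to 1 genes past the threshold. The median of the partners was 0.19 with the filter at the 60th percentile and 0.18 to 0.35 with single arrays left out, and that of the genes known to fall was -0.40 to 0.29.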
